A study of Homo sapiens with 6 samples.

Results

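The genes described here are the expressed members of the numbered ZNF family in 2 human breast cancer cell lines. A gene was taken when its name was ZNF followed by a number and its level in the control library was 3 RPKM or more in both lines (RPKM is a read number scaled for gene length and sequencing depth, so levels of different genes can be compared). The rule gave 72 entries, of which 2 (ZNF185 and ZNF322) repeat a gene with identical values under another ID, and so 70 genes of 482 with such names and of 63521 entries in each table. The genes were thus chosen by their siNC levels, and the siNC level is also the base of each comparison with siLARP7. The differences are therefore given as a description, with no test.

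C2H2 zinc finger proteins read DNA, and in some cases RNA, through a row of small folds in which a pair of cysteines and a pair of histidines hold a zinc ion. Many of them also carry a KRAB box near the start of the protein. The KRAB box binds TRIM28, which brings the histone methyltransferase SETDB1 and HP1 proteins to the bound site, and many KRAB zinc finger proteins silence transposable elements in this way. Their genes stand in clusters, the largest of them on chromosome 19, and the ZNF name is also borne by proteins that have few such fingers or none.

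LARP7 binds the 7SK noncoding RNA, whose particle keeps P-TEFb, the kinase that releases paused RNA polymerase II, inactive. MDA-MB-231 is a mesenchymal-like line, and HCC1937 is a basal-like line known for its mutant BRCA1. Each line received an siRNA at 10 ng/ml, either siLARP7 or the siNC control, and each of the 4 groups held 1 library of total RNA from bulk cultures. No difference has a replicate check, and fewer cells of a kind and less RNA per cell cannot be told apart. The series also holds fibroblasts from LARP7 knockout and wild-type mice, which were not analysed here.

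Depth recovered from the values was 49.3 to 53.3 M reads per library, and the 70 genes had about 278 to 11551 reads each in the controls. LARP7 itself measured 8.65 RPKM with siNC and 4.51 with siLARP7 in MDA-MB-231, and 5.62 and 2.89 in HCC1937. Its log2 ratios on RPKM + 1 were -0.81 in MDA-MB-231 and -0.77 in HCC1937. With a trend of GC content, length and level removed, as given further on, these became -0.66 and -0.49. The value in HCC1937 was then short of 1.5-fold. In the controls all 7 epithelial markers read were higher in HCC1937 (EPCAM 67.4 RPKM against 3.50 in MDA-MB-231), and KRT5 and KRT14 were listed at 0 in MDA-MB-231, where KRT8 and KRT18 still stood at 67.1 and 68.3. Of 6 mesenchymal markers, 5 were higher in MDA-MB-231 (VIM 149 RPKM against 1.69), and SPARC was higher in HCC1937 (4.20 against 1.51). Intervals below are exact 95% Clopper-Pearson intervals of the siLARP7 level as a percent of control, and they cover counting error only.

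The repeated unit of the family is shown for 5 members, picked as examples with their values known. Each line is the coding sequence of the second finger found by a pattern search, 63 bases, with the codons of the zinc-binding cysteines and histidines in capitals. All 5 genes are on chromosome 19 (GENCODE release 29 transcripts), and the first 3 were lower with siLARP7 in HCC1937 while the last 2 were higher.
ZNF146: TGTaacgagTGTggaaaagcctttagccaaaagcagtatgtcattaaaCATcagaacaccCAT
ZNF761: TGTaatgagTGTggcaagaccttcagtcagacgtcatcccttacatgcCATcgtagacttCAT
ZNF274: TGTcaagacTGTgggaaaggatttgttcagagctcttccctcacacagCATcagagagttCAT
ZNF358: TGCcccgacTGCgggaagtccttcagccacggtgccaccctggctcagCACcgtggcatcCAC
ZNF787: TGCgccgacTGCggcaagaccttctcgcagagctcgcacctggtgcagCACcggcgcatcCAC
The spacing of the capitals is the same in all 5 sequences, but the codons that fill it differ. In ZNF146, ZNF761 and ZNF274 each capital codon ends in T, and in ZNF358 and ZNF787 each ends in C. The median GC content over all fingers of a gene was 41.3% for ZNF146, 42.9% for ZNF761, 52.4% for ZNF274, 69.8% for ZNF358 and 68.3% for ZNF787. With the trend of GC content, length and level removed, the HCC1937 log2 ratio of ZNF358 went from 0.87 to 0.27. That of ZNF787 went from 0.50 to -0.13. ZNF146, ZNF761 and ZNF274 then had -1.14, -1.01 and -0.37. A link between these codons and the response was not tested.

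In the controls the 70 genes ran from 3.004 to 31.0 RPKM in MDA-MB-231 (median 5.76) and from 3.04 to 63.8 in HCC1937 (median 6.34). The level was higher in HCC1937 than in MDA-MB-231 for 45 of them. Spearman's rho between the control levels of the lines was 0.50 over the 70 genes, a description of 1 library a line. Members nearest the limit by the lower of both controls were ZNF761 at 3.004, ZNF414 at 3.04, ZNF576 at 3.10 and ZNF143 at 3.11 RPKM inside it. Just outside it stood ZNF496 at 2.97, ZNF646 at 2.92, ZNF346 at 2.87 and ZNF121 at 2.87 RPKM.

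By the lower of their control levels, the most abundant members were ZNF358, ZNF146, ZNF598, ZNF622, ZNF428, ZNF664, ZNF768 and ZNF217. ZNF358 measured 18.6 RPKM with siNC and 25.1 with siLARP7 in MDA-MB-231, and 62.7 and 115.7 in HCC1937. ZNF664 measured 13.6 and 14.5 RPKM in MDA-MB-231, and 17.0 and 16.2 in HCC1937. ZNF768, a protein of 10 fingers, measured 12.8 and 17.6 RPKM in MDA-MB-231, and 56.6 and 52.8 in HCC1937. Of these 3, ZNF358 was higher with siLARP7 in both lines, and the other 2 were higher in MDA-MB-231 and lower in HCC1937. Log2 ratios of ZNF664 and ZNF768 in HCC1937 were -0.06 and -0.10, above the median of -0.14 for all genes there. With the trend of GC content, length and level removed they were -0.01 and -0.51, beside a median of -0.17 for other protein-coding genes.

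**Figure D1:**
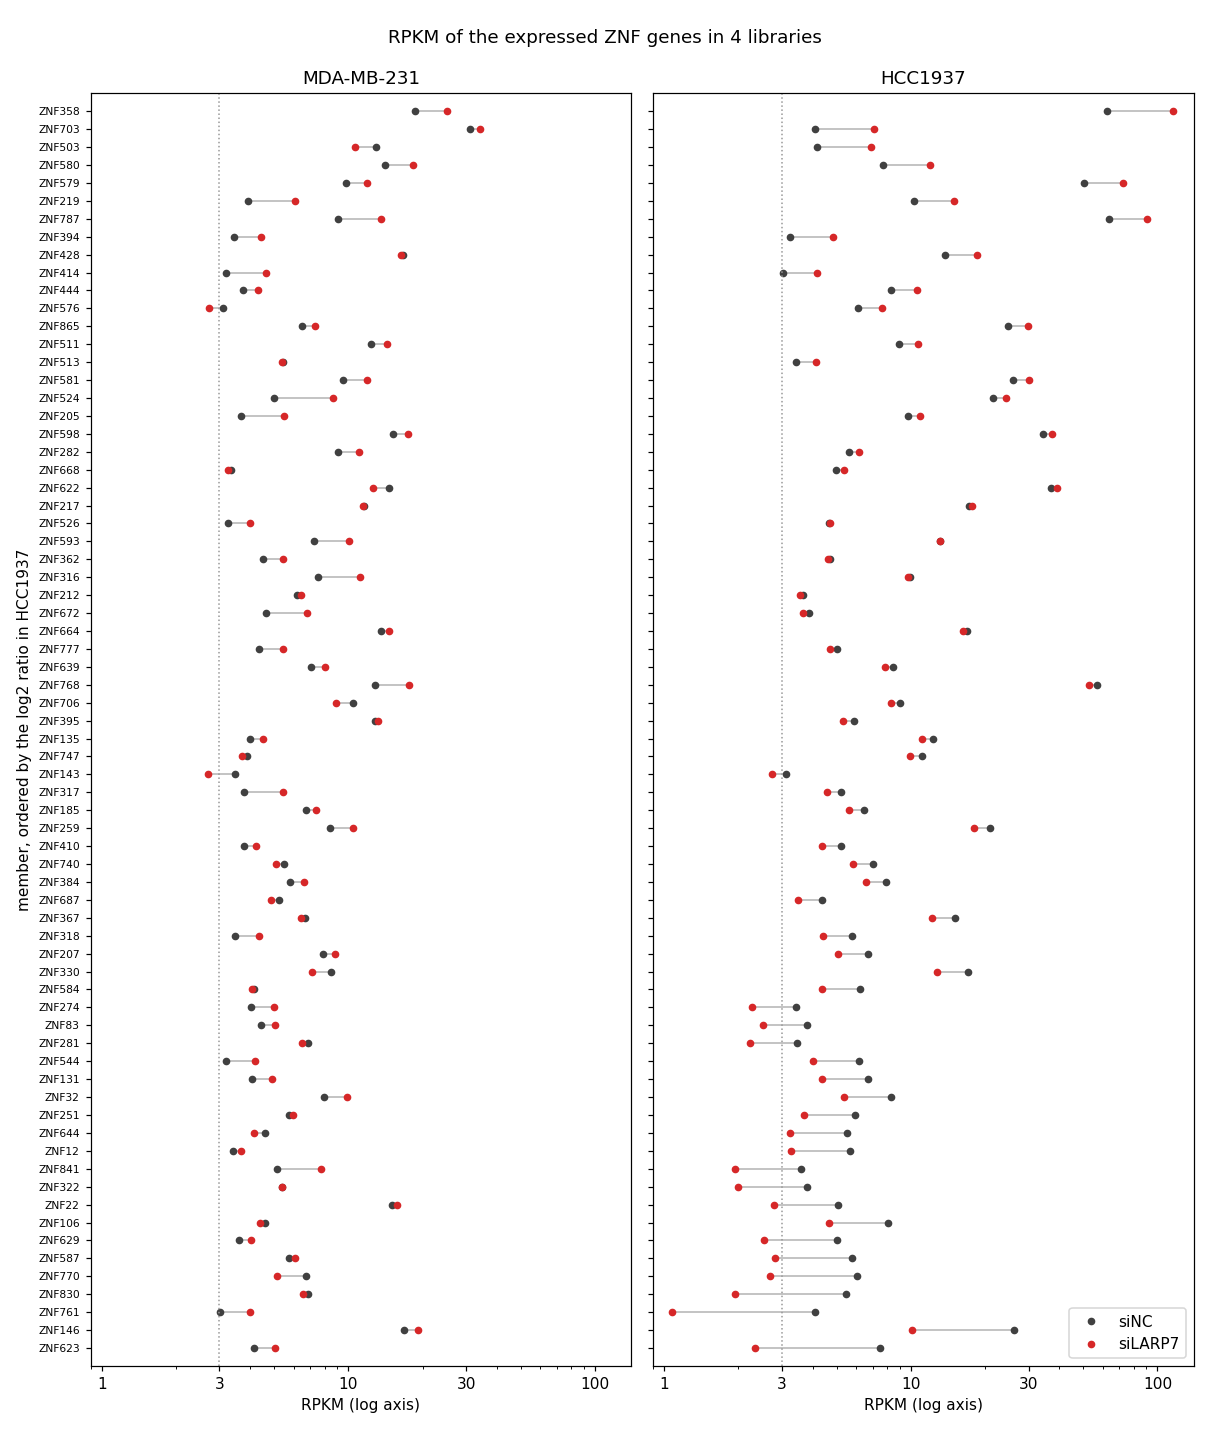
RPKM of ZNF genes with siNC and with siLARP7 in MDA-MB-231 and HCC1937, on a log axis, 1 library a group, in order of the log2 ratio in HCC1937 and with the limit of 3 RPKM dotted. On RPKM + 1, ZNF623, ZNF146, ZNF761 and ZNF830 are 2-fold or more lower with siLARP7 in HCC1937, and no ZNF gene is so in MDA-MB-231. On RPKM alone, ZNF770 (44.5% of control) and ZNF587 (48.8%) are so too in HCC1937.

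The ZNF genes went different ways in the 2 lines. With siLARP7 50 of 70 were above control in MDA-MB-231, with a median log2 ratio of 0.16 on RPKM + 1 (quartiles -0.02 and 0.28). In HCC1937 45 of 70 were below control, with a median of -0.14 (quartiles -0.46 and 0.14). The background differs between the lines: of all genes at 1 RPKM or more in a library, 50.2% were above 0 and 49.8% below in MDA-MB-231, and 35.6% were above 0 and 64.4% below in HCC1937, with medians of 0.00 and -0.14. The median of the ZNF genes in HCC1937 is thus that of all genes, and in MDA-MB-231 it lies above it.

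Large differences were few, and those to lower levels were all in HCC1937. On RPKM + 1, 4 of 70 ZNF genes there were 2-fold or more lower (ZNF623, ZNF146, ZNF761 and ZNF830), beside 1.23% of all genes. None was 2-fold higher, beside 0.399%. At 1.5-fold, 13 were lower beside 10.8% of all genes, and 3 were higher (ZNF358, ZNF703 and ZNF503) beside 2.75%. In MDA-MB-231 none was 2-fold lower or higher, beside 0.74% and 0.501% of all genes. At 1.5-fold, none was lower there beside 4.03%, and 1 was higher (ZNF524) beside 2.88%. A closer background is the 7544 other protein-coding genes at the same control level, whose medians were -0.13 in HCC1937 and -0.02 in MDA-MB-231. In HCC1937 65.1% of these were below 0 and 34.9% above, 1.11% were 2-fold lower, 0.159% 2-fold higher, 10.8% 1.5-fold lower and 1.52% 1.5-fold higher. In MDA-MB-231 53.2% were below 0 and 46.8% above, and the other shares in the same order were 0.239%, 0.0265%, 2.92% and 0.703%.

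Scaling the HCC1937 libraries to an equal median moved the split of ZNF genes there from 45 below and 25 above to 36 below and 34 above. That scaling raises every log2 ratio in the line, since the median log2 ratio of genes at 1 RPKM or more was -0.13. In MDA-MB-231 that median was 0.00, and scaling left the values almost as they were. The authors' deposited table, which gives a shrunken GFOLD change, had 43 of the 70 genes above 0, 7 below and 20 at 0 in MDA-MB-231. For HCC1937 the authors' deposited table had 19 above, 37 below and 14 at 0, with 5 at -1 or less.

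Each gene was also read in both lines together. Of the 70, 32 were lower in HCC1937 and higher in MDA-MB-231, 18 were higher in both, 13 were lower in both, and 7 were higher in HCC1937 and lower in MDA-MB-231. Of all genes, 64.4% were below control in HCC1937 and 50.2% above it in MDA-MB-231. Their shares by both lines together are not given here. Counting intervals lay wholly below 100% of control for 40 genes in HCC1937 and for 10 in MDA-MB-231. They lay wholly above 100% for 21 and 43 genes, and the rest held 100%. The same counts over all genes are not given, so no background share stands beside these. The median log2 ratio of all genes in HCC1937 was itself -0.14. Spearman's rho between the log2 ratios of the lines was 0.26 over the 70 genes, which share libraries and base composition. It was 0.13 over the 7544 other protein-coding genes at the same control level.

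**Figure D2:**
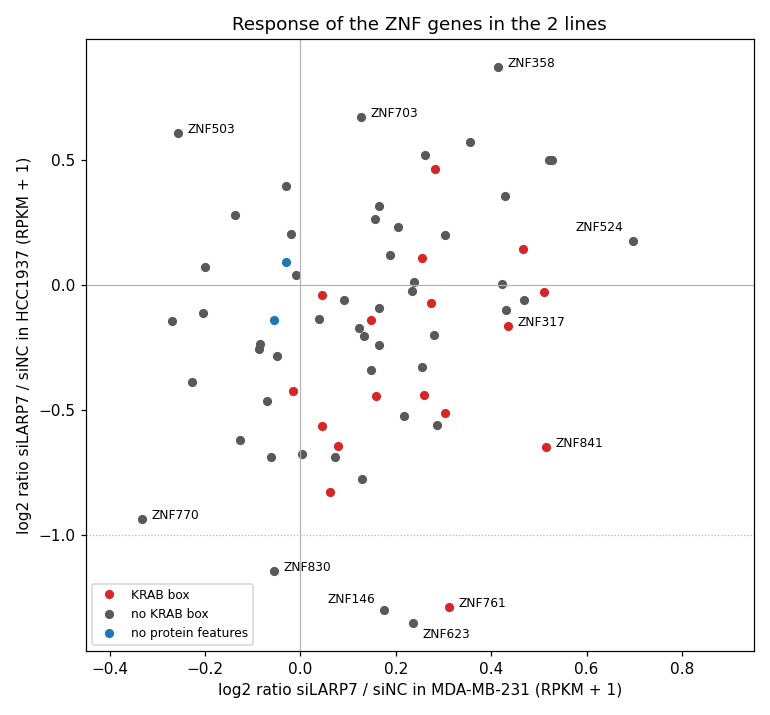
Log2 ratio of siLARP7 to siNC on RPKM + 1 in HCC1937 against that in MDA-MB-231, 1 point a ZNF gene. The quadrant that is lower in HCC1937 and higher in MDA-MB-231 holds 32 of 70 genes, among them 13 of the 17 with a KRAB box. Of all genes, 64.4% are below control in HCC1937 and 50.2% above it in MDA-MB-231.

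The 4 genes with the largest difference in HCC1937 have different roles. ZNF623, a protein of 13 fingers, measured 7.51 RPKM with siNC and 2.33 with siLARP7 in HCC1937 (31.1% of control, 28.7 to 33.6), and 4.14 and 5.06 in MDA-MB-231. ZNF146, a protein made almost wholly of its 10 fingers, measured 26.3 and 10.1 RPKM in HCC1937 (38.4%, 36.5 to 40.4), and 16.8 and 19.1 in MDA-MB-231. Both genes were thus lower in one line and higher in the other, with log2 ratios of -1.35 and 0.24 for ZNF623 and -1.30 and 0.18 for ZNF146.

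ZNF761, with a KRAB box and 17 fingers, measured 4.07 RPKM with siNC and 1.08 with siLARP7 in HCC1937 (26.4%, 22.9 to 30.4), and 3.004 and 3.97 in MDA-MB-231. ZNF830, a partner of the splicing factor XAB2 with 1 finger found, measured 5.47 and 1.93 RPKM in HCC1937 (35.3%, 30.2 to 41.3), and 6.86 and 6.56 in MDA-MB-231. ZNF761 was higher in MDA-MB-231, while the interval of ZNF830 there held 100%. Next in HCC1937 came ZNF770 at -0.93, ZNF587 at -0.83, ZNF629 at -0.78 and ZNF106, an RNA-binding protein, at -0.69 on the log2 scale. ZNF770 was also below control in MDA-MB-231, where it was the lowest gene, at 6.74 RPKM with siNC and 5.14 with siLARP7. The value of ZNF587 is uncertain, because its coding sequence is 99.1% identical to that of ZNF417 over 1725 bases. Other parts of the transcripts were not compared.

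Among the genes with higher levels, ZNF358 had a log2 ratio of 0.87 in HCC1937 (185% of control, 179 to 190) and 0.41 in MDA-MB-231. ZNF703, a corepressor gene amplified in luminal breast cancers, measured 4.07 RPKM with siNC and 7.09 with siLARP7 in HCC1937, and 31.0 and 34.0 in MDA-MB-231. Its relative ZNF503 measured 4.17 and 6.89 RPKM in HCC1937, and 12.9 and 10.6 in MDA-MB-231, so it was higher in one line and lower in the other. No finger of the searched pattern was found in ZNF703 or ZNF503. Next in HCC1937 came ZNF580 at 0.57, ZNF579 at 0.52, ZNF219 at 0.50, ZNF787 at 0.50 and ZNF394 at 0.47.

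ZNF524, a protein of 4 fingers, was the highest in MDA-MB-231, with 4.98 RPKM with siNC and 8.70 with siLARP7 (175% of control, 153 to 200). In HCC1937 it measured 21.5 and 24.4 RPKM. After it in MDA-MB-231 came ZNF219 at 0.53, ZNF787 at 0.52, ZNF841 at 0.51, ZNF316 at 0.51, ZNF672 at 0.47, ZNF205 at 0.47 and ZNF317 at 0.44. The lowest after ZNF770 were ZNF143 at -0.27, ZNF503 at -0.26, ZNF330 at -0.23, ZNF706 at -0.20, ZNF622 at -0.20, ZNF576 at -0.14 and ZNF644 at -0.13.

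The KRAB genes lay mostly below control in one line and above it in the other. A KRAB box was found in 17 of the 68 genes with a transcript to search. In HCC1937 14 of these 17 were below control beside 64.4% of all genes, 4 of them by 1.5-fold or more beside 10.8%, with a median log2 ratio of -0.42. In MDA-MB-231 16 of the 17 were above control beside 50.2% of all genes, with a median of 0.26, and ZNF584 was the one below (-0.02). The 51 genes with no KRAB box had medians of -0.10 in HCC1937 and 0.15 in MDA-MB-231. With the HCC1937 libraries scaled to an equal median, 11 of the 17 KRAB genes stayed below control there (median -0.31), and the median of the others turned to 0.03.

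ZNF841, a KRAB protein of 20 fingers, measured 3.60 RPKM with siNC and 1.94 with siLARP7 in HCC1937, and 5.13 and 7.76 in MDA-MB-231. ZNF274, a KRAB protein that brings SETDB1 to other ZNF genes, measured 3.42 and 2.26 RPKM in HCC1937, and 4.03 and 5.01 in MDA-MB-231. ZNF12, with 15 fingers, measured 5.64 and 3.26 RPKM in HCC1937, and 3.42 and 3.67 in MDA-MB-231. All 3 were lower in HCC1937 and higher in MDA-MB-231, though the interval of ZNF12 in MDA-MB-231 held 100%. The 3 KRAB genes higher in both lines were ZNF394, ZNF205 and ZNF282, with log2 ratios in HCC1937 of 0.47, 0.14 and 0.11. With a trend of GC content, length and level removed, as given further on for all members, these became 0.47, -0.19 and -0.10, so ZNF205 and ZNF282 turned. ZNF212, a neighbour of ZNF282 on chromosome 7, had values of -0.04 in HCC1937 and 0.05 in MDA-MB-231, and its interval held 100% in both.

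The number of fingers gave a similar split. Of the 18 genes with 10 or more, 16 were below control in HCC1937 and 8 of these by 1.5-fold or more (median -0.54), beside 64.4% and 10.8% of all genes. In MDA-MB-231 17 were above control (median 0.21), beside 50.2%. With HCC1937 scaled as above, 13 of the 18 were below control. Genes with 5 to 9 fingers had medians of -0.08 and 0.19 (24 genes), and genes with 1 to 4 had medians of 0.00 and 0.05 (21 genes). The 5 genes with none had medians of -0.17 and 0.12, so the medians do not follow the number of fingers throughout. Spearman's rho between the number of fingers and the log2 ratio was -0.27 in HCC1937 and 0.30 in MDA-MB-231 over 68 genes. The number of fingers and the GC content of the transcript had a rho of -0.03.

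**Figure D3:**
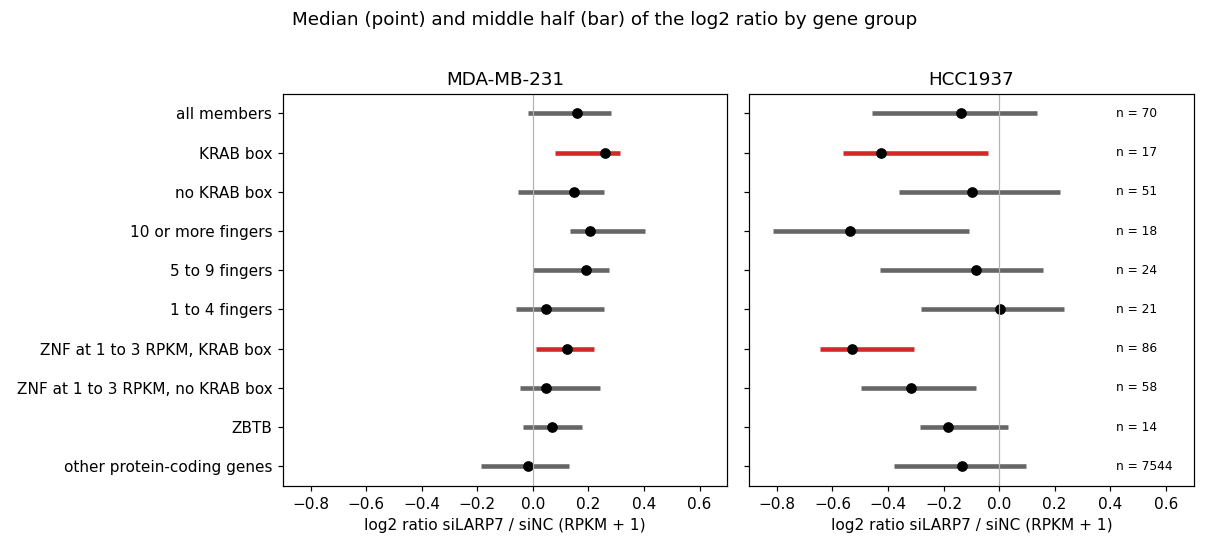
Median log2 ratio of siLARP7 to siNC in each line for groups of ZNF genes and for other protein-coding genes at the same control level, with the number of genes in each (points are medians, bars run between the quartiles). ZNF genes with a KRAB box stand at -0.42 in HCC1937 and 0.26 in MDA-MB-231, against -0.13 and -0.02 for the other protein-coding genes.

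Base composition moved with the ratios. Over 68 ZNF genes Spearman's rho between the GC content of the longest transcript and the log2 ratio was 0.77 in HCC1937 and 0.46 in MDA-MB-231. The same held across the 7543 other protein-coding genes with a transcript, at 0.59 and 0.38. Of the 23 ZNF genes with under 45% GC, 22 were below control in HCC1937, 12 of them by 1.5-fold or more, and all 4 that were 2-fold lower are among them. Of the other protein-coding genes under 45% GC, 91.2% were below control and 24.5% were 1.5-fold lower. The median of the 23 ZNF genes was -0.62, against -0.37 for other genes of that GC content. Of the 28 ZNF genes at 55% GC or more, 20 were above control and 8 below in HCC1937 (median 0.19, others 0.09), and 37.4% of the others were below.

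In MDA-MB-231 the medians of the ZNF genes from low to high GC were 0.06, 0.15 and 0.26, and those of the other genes were -0.14, 0.01 and 0.07. With a smooth trend of GC, length and level removed, ZNF genes had a median of -0.19 in HCC1937 beside -0.17 for the others, and 0.13 in MDA-MB-231 beside -0.02. ZNF623, ZNF146, ZNF761 and ZNF830 then had values of -1.13, -1.14, -1.01 and -0.94, and ZNF358 went from 0.87 to 0.27. The step changed the sign of 14 ZNF genes in HCC1937, 11 from above to below 0 and 3 the other way, and of 5 in MDA-MB-231. Among those in HCC1937 were ZNF787 (0.50 to -0.13), ZNF865 (0.26 to -0.27), ZNF598 (0.12 to -0.29), ZNF524 (0.18 to -0.23) and ZNF143 (-0.14 to 0.08). The step adds the mean of the line back, so 0 is not its middle in HCC1937. Of the ZNF genes at 55% GC or more, 18 of 28 were then below 0, beside 76.2% of other protein-coding genes of any GC. Their median went from 0.19 to -0.10, and that of other protein-coding genes at 55% GC or more from 0.09 to -0.17. KRAB genes had medians of -0.36 and 0.20 after this step, with 16 of 17 below 0 in HCC1937, beside 76.2% of the other protein-coding genes. Genes with 10 or more fingers had medians of -0.41 and 0.24, with all 18 below 0 in HCC1937. The part of base composition, RNA quality or library making in these values was not tested.

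**Figure D4:**
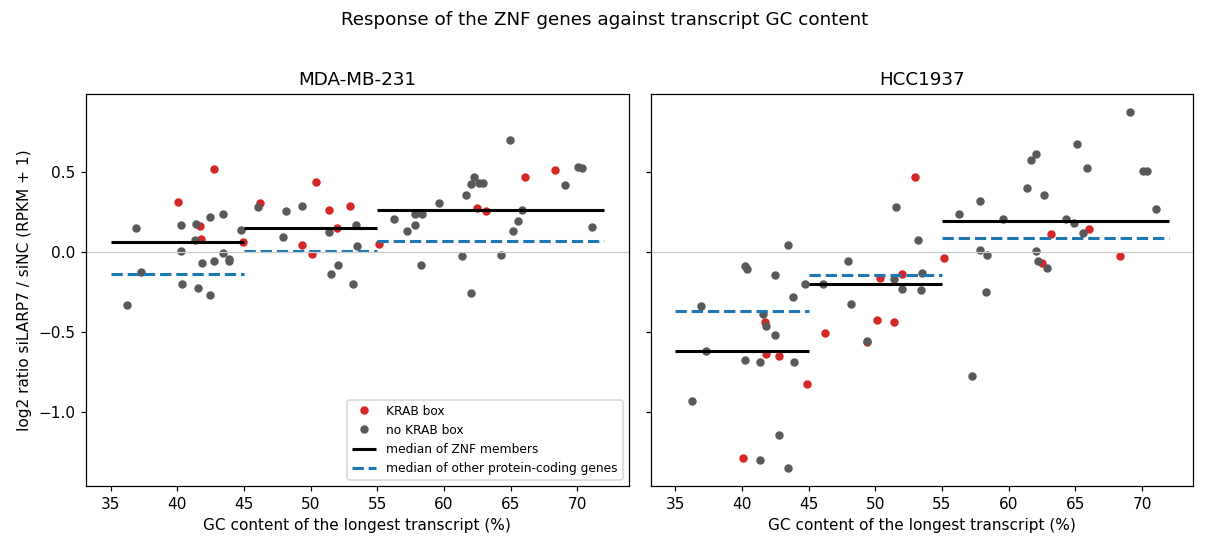
Log2 ratio of siLARP7 to siNC against the GC content of the longest transcript, in percent, for ZNF genes in each line, with lines for the medians of the ZNF genes and of other protein-coding genes by GC range. The values climb with GC in both lines, with rho of 0.77 in HCC1937 and 0.46 in MDA-MB-231.

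**Figure D5:**
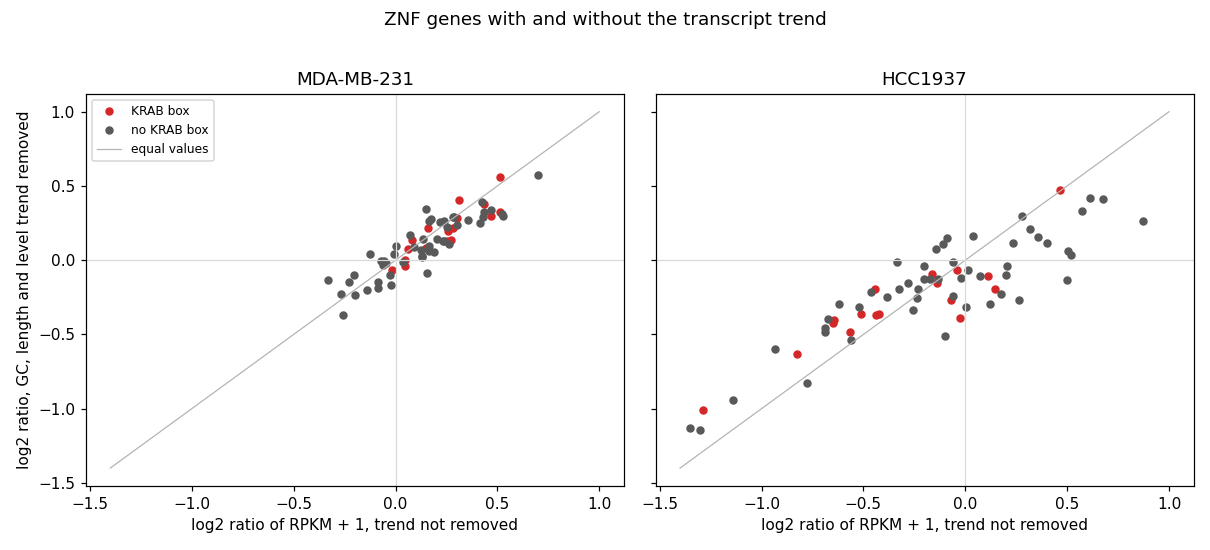
Log2 ratio of each ZNF gene with the trend of GC, length and level removed, against the ratio without that step. In HCC1937 the high values shrink most, and ZNF623, ZNF146 and ZNF761 stay at -1.01 or lower.

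Groups by chromosome differed in HCC1937, and in part with GC content. Of the 22 ZNF genes on chromosome 19, the 9 with a KRAB box were all below control in HCC1937 (median -0.44), beside 64.4% of all genes. In MDA-MB-231 8 of them were above it, beside 50.2%. The 13 with no KRAB box were above control in HCC1937 (median 0.32) except ZNF146, beside 35.6% of all genes. In MDA-MB-231 11 of them were above it, beside 50.2%. The median GC content of these groups was 46.2% and 61.7%. Of other protein-coding genes in HCC1937, 70.4% were below control at 45 to 55% GC and 37.4% at 55% or more. The 8 KRAB genes on other chromosomes had a median of -0.03 in HCC1937 and 0.26 in MDA-MB-231. With the trend removed the HCC1937 medians of these 3 groups became -0.36, 0.04 and -0.23.

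Some neighbours on chromosome 19 had the same direction before the trend was removed. ZNF579, ZNF524, ZNF865, ZNF580 and ZNF581, which follow each other closely, were all higher in both lines, from 0.18 to 0.57 in HCC1937 and from 0.16 to 0.70 in MDA-MB-231. The neighbours ZNF787 and ZNF444 were also higher in both. With the trend removed the HCC1937 values of the 5 genes had mixed signs, at 0.04, -0.23, -0.27, 0.33 and -0.10, and those of ZNF787 and ZNF444 were -0.13 and 0.21. ZNF135, ZNF274 and ZNF544, a run of KRAB genes, had values of -0.14, -0.44 and -0.51 in HCC1937 and 0.15, 0.26 and 0.30 in MDA-MB-231. ZNF576 and ZNF428 were higher in HCC1937 and below control in MDA-MB-231, where the interval of ZNF428 held 100%. On chromosome 7 the neighbours ZNF282, ZNF212 and ZNF777 had values of 0.11, -0.04 and -0.07 in HCC1937, and ZNF316 and ZNF12 had -0.03 and -0.64.

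Members known to act in transcription and chromatin without a KRAB box came next by role. ZNF143, an activator of small nuclear RNA genes, measured 3.45 RPKM with siNC and 2.69 with siLARP7 in MDA-MB-231, and 3.11 and 2.73 in HCC1937. ZNF281, a regulator of pluripotency and epithelial-mesenchymal transition, measured 6.84 and 6.47 RPKM in MDA-MB-231, and 3.45 and 2.23 in HCC1937. ZNF217, an oncogene amplified in breast cancer, measured 11.6 and 11.5 RPKM in MDA-MB-231, and 17.2 and 17.7 in HCC1937. The intervals of ZNF217 held 100% in MDA-MB-231 and in HCC1937, while ZNF143 lay below 100% in both lines.

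ZNF644, a partner of the histone methyltransferase G9a, had log2 ratios of -0.62 in HCC1937 and -0.13 in MDA-MB-231. ZNF687, a partner of the chromatin reader ZMYND8, had values of -0.25 and -0.09. ZNF131, a BTB-domain protein, had -0.52 and 0.22, and ZNF384 had -0.24 and 0.17. ZNF410, an activator of the remodeller gene CHD4, had -0.20 and 0.13, beside CHD4 levels of 13.3 and 11.2 RPKM in HCC1937 and 14.5 and 14.6 in MDA-MB-231. Each of these 5 was lower in HCC1937, beside 64.4% of all genes, while ZNF217 and ZNF703 had values of 0.04 and 0.67 there. ZNF131, ZNF384 and ZNF410 were higher in MDA-MB-231, beside 50.2% of all genes. With the trend removed, the HCC1937 values of ZNF644, ZNF687, ZNF131 and ZNF384 were -0.30, -0.33, -0.31 and -0.25. That of ZNF410 was -0.04, beside a median of -0.17 for other protein-coding genes.

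Members that work on ribosomes, RNA or the spindle formed another group. ZNF622 and ZNF593 have yeast counterparts, Rei1 and Bud20, that mature the large ribosomal subunit. ZNF622 measured 14.7 RPKM with siNC and 12.6 with siLARP7 in MDA-MB-231, and 37.1 and 39.1 in HCC1937. ZNF593 measured 7.28 and 10.1 RPKM in MDA-MB-231, and 13.1 and 13.1 in HCC1937. The 2 genes thus went opposite ways in MDA-MB-231. ZNF598, a ubiquitin ligase for collided ribosomes, measured 15.1 and 17.4 RPKM in MDA-MB-231, and 34.4 and 37.5 in HCC1937. ZNF207, the kinetochore protein BuGZ, measured 7.90 and 8.86 RPKM in MDA-MB-231, and 6.69 and 5.09 in HCC1937.

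A few members carry the name with no finger of the pattern. ZNF185 is a LIM-domain protein, ZNF330 is a nucleolar protein, and ZNF259 is now called ZPR1. ZNF330 measured 8.49 RPKM with siNC and 7.11 with siLARP7 in MDA-MB-231, and 17.0 and 12.8 in HCC1937, lower in both lines. ZPR1 measured 8.38 and 10.4 RPKM in MDA-MB-231, and 20.9 and 18.1 in HCC1937. ZNF185 had log2 ratios of 0.12 and -0.17 in the same order of lines.

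The KRAB corepressors and heterochromatin proteins, a list of 18 genes, had 15 below control and 3 above in HCC1937, beside 64.4% of all genes below. Their median there was -0.24, and -0.21 with the trend removed, beside -0.17 for other protein-coding genes. In MDA-MB-231 8 were below and 10 above, with a median of 0.04. The 3 that were 1.5-fold lower in HCC1937 were ATRX, CBX5 and FAM208A, a chromatin remodeller, the HP1 alpha protein and a subunit of the HUSH silencing complex. Their values went from -0.63, -0.64 and -0.66 to -0.29, -0.39 and -0.30 with the trend removed, so none stayed 1.5-fold lower. TRIM28 measured 52.7 RPKM with siNC and 58.5 with siLARP7 in MDA-MB-231, and 149 and 173 in HCC1937. With the trend removed the log2 ratio of TRIM28 in HCC1937 went from 0.21 to -0.28. SETDB1 measured 3.95 and 3.79 RPKM in MDA-MB-231, and 1.36 and 1.02 in HCC1937.

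The rule leaves out ZNF genes of lower level, and these were read in the same way. Of the 144 numbered ZNF genes at 1 to 3 RPKM in the lower control, 129 were below control in HCC1937, 35 of them by 1.5-fold or more (median -0.43), beside 64.4% and 10.8% of all genes, and 120 were below it after scaling. With the trend removed 116 were below 0, 12 of them by 1.5-fold or more (median -0.30), beside 76.2% and 6.92% of the other protein-coding genes at 3 RPKM or more. In MDA-MB-231 103 of the 144 were above control beside 50.2% of all genes (median 0.10), and none was 1.5-fold lower or higher on RPKM + 1. The added 1 shrinks ratios at these low levels, and values without it are not given for this set. ZNF202, at 2.65 RPKM with siNC and 4.04 with siLARP7, passed 1.5-fold on RPKM alone. The 86 with a KRAB box had medians of -0.53 and 0.12 in HCC1937 and MDA-MB-231. The 58 without one had medians of -0.32 and 0.05. Median GC content was 43.1% with the box and 53.2% without it. With the trend removed the HCC1937 medians were -0.31 with the box and -0.28 without it, so they lay close together. Those in MDA-MB-231 were 0.15 and 0.05. The 144 genes come from the same 4 libraries, so they are no replicate of the 70.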

How the data were processed

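The 4 human RNA-seq libraries (siLARP7 and siNC in each line) were used, 1 a group. The submitters' processing notes name STAR, cutadapt, FastQC and the GRCh37 build. No label or header states whether counting used strand, so reads of overlapping antisense genes cannot be told apart. Gene levels were deposited by the authors as RPKM, per the file headers. The authors also deposited a log2 change from GFOLD, per the file headers, quoted only as theirs. Other measured columns were not used.

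Per gene, the log2 ratio of siLARP7 to siNC was taken on RPKM + 1, called by size at 2-fold and 1.5-fold, over all genes at 1 RPKM or more in a library. The understatement of low genes by the pseudocount of 1 is covered by the alternatives. Depth was recovered from single-exon genes under 50 reads, which gave whole reads within 0.01 in 100% of 2535 to 3373 genes a library. Approximate reads (RPKM times exon length times depth) gave the intervals, and PCR copies are not independent molecules. A second copy of pseudoautosomal genes on Y (47 entries) was dropped.

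Transcript length, GC content, chromosome, C2H2 fingers and the KRAB box came from GENCODE release 29, which is of another build than the authors' GRCh37. Its positions served for the order of genes along a chromosome, with members up to 3 gene steps apart read as neighbours. The design foresaw RefSeq proteins for the fingers and the KRAB box, and translated GENCODE coding sequences were searched instead. ZNF668 and ZNF747 enter under IDs that GENCODE gives to other genes, so 68 members have features, and by their own entries (2.43 and 2.49 RPKM in the MDA-MB-231 control) they would not pass the rule. ZNF511 shares 507 identical bases with a readthrough transcript, so its value is uncertain. The trend of GC, log2 length and level was a polynomial of degree 3 over protein-coding genes, with the mean added back.

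The members and the lists were chosen with earlier results of these data known. The genes named are the 8 lowest, 8 highest and 8 most abundant members, those past 2-fold, those beside the limit and those of a list of known roles. Other named members (among them ZNF12, ZNF185, ZNF259, ZNF394, ZNF410, ZNF444, ZNF544, ZNF581 and ZNF584), the groups by GC content, fingers and chromosome, and the corepressors singled out were chosen after their values were seen. One gene of the family is not reported here. Python 3.11.15, pandas 2.3.3, numpy 2.4.6, scipy 1.17.1, blastn 2.17.0 and matplotlib 3.10.9 were used, and the steps were tested on simulated data.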

Additional observations from a re-analysis of the deposited data

Results flagged for a closer look

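Several ZNF genes went opposite ways in the 2 lines, with both counting intervals clear of 100% of control and a difference of 1.5-fold or more in 1 line. The difference between the lines was not tested, since each group holds 1 library. On the log2 scale, MDA-MB-231 first, the values were 0.24 and -1.35 for ZNF623, 0.18 and -1.30 for ZNF146, 0.31 and -1.29 for ZNF761, 0.13 and -0.78 for ZNF629, and 0.51 and -0.65 for ZNF841. ZNF503 went the other way, at -0.26 and 0.61. The medians of the 70 genes were 0.16 in MDA-MB-231 and -0.14 in HCC1937.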

How the results depend on the processing

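The limit of 5 RPKM left 33 genes and that of 1 RPKM 220, while choosing by siLARP7 level gave 65 and by the mean 68, so counts under these settings are of other totals than 70. No paired analysis was possible because each group holds 1 library, and for the same reason no replicate could be left out. In MDA-MB-231 the median log2 ratio of 0.16 became 0.18 with a pseudocount of 0.1 and with none, 0.13 with the trend removed, 0.12 with a limit of 1 RPKM and 0.19 with genes chosen by siLARP7 level. The 20 genes below 0 there became 9 with a limit of 5 RPKM and 64 with 1 RPKM. The 1 gene higher by 1.5-fold became 3 with the smaller pseudocount or none, and 0 with the trend removed or a limit of 5 RPKM.

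In HCC1937 the median of -0.14 became -0.15 with a pseudocount of 0.1 or none, -0.016 with median scaling, -0.0068 with TMM, -0.19 with the trend removed, -0.10 with a limit of 5 RPKM, -0.34 with 1 RPKM, -0.059 with genes chosen by siLARP7 level and -0.082 with genes chosen by the mean. The 45 genes below 0 became 20 with a limit of 5 RPKM and 179 with 1 RPKM. The 13 genes lower by 1.5-fold became 20 with no pseudocount, 7 with TMM or the trend removed, 5 with 5 RPKM, 48 with 1 RPKM and 4 with genes chosen by siLARP7 level. The 3 higher by 1.5-fold became 7 with median scaling, 8 with TMM, 0 with the trend removed and 1 with 5 RPKM. The 4 lower by 2-fold became 6 with a pseudocount of 0.1 or none. The count was 2 with 5 RPKM, 8 with 1 RPKM and 1 with genes chosen by siLARP7 level. The 0 higher by 2-fold became 1 under both scalings. A rule on the control level can favour lower siLARP7 values, and its part in these values was not tested. With the trend removed 14 genes changed sign in HCC1937, among them ZNF787 (-0.13), and 5 in MDA-MB-231, among them ZNF644 (0.04). The median of all members kept its sign under each setting. That of ZNF genes at 55% GC or more in HCC1937 went from 0.19 to -0.10 with the trend removed. The median of other protein-coding genes at that GC went from 0.09 to -0.17. The cause of these moves was not tested. At the lowest read number of 278, counting alone spans 119% to 162% of control.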

Other observations

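Related finger families at the same control level had fewer members. Of 14 ZBTB genes, which pair fingers with a BTB domain, 10 were below control in HCC1937 (median -0.18), beside 64.4% of all genes, and 9 were above it in MDA-MB-231 (median 0.07), beside 50.2%. With the trend removed their median in HCC1937 was -0.0015. The 5 genes named ZFP had medians of -0.02 and 0.12 in the same order. Of the 25 genes on the list of known roles, 8 were under the limit of 3 RPKM in a control. Among them ZNF24 measured 11.4 RPKM with siNC and 9.06 with siLARP7 in MDA-MB-231, and 1.75 and 0.94 in HCC1937. ZNF202 measured 2.65 and 4.04 RPKM in MDA-MB-231, and 1.88 and 0.83 in HCC1937.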
